A study of Mus musculus with 5 samples.

Results

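The endothelial adhesion molecules and selectins are 10 genes picked by symbol, Icam1, Icam2, Vcam1, Sele, Selp, Pecam1, Cdh5, Jam2, Esam and Madcam1, out of 22180 symbols that had a probe of their own on the array. Each of the 10 has a single probe, and all 10 passed the filter on low values. The 4 activation-induced genes (Icam1, Vcam1, Sele and Selp) encode surface proteins that inflamed endothelium makes in larger amounts. A further 5 (Icam2, Pecam1, Cdh5, Jam2 and Esam) are constitutive proteins of the resting endothelial surface and its cell contacts. Madcam1, the mucosal addressin, was kept apart from both classes.

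The RNA came from whole hearts of wild-type C57Bl6J mice taken at zeitgeber time 12 (hours after lights on). The isolated hearts were perfused on a Langendorff apparatus, which feeds the coronary vessels through the aorta, for 20 min of stabilisation, 20 min without flow and 20 min of reperfusion. Hearts in the antagonist group (n = 3) were from mice that had received a REV-ERB alpha antagonist intraperitoneally, at 10 µM in the labels' words, 4 h and 1 h before the perfusion. Sham hearts (n = 2) had the same ischemia and reperfusion without it, so every heart in the series was reperfused, and neither the compound's name nor a vehicle injection is given for them. The age of the mice is not stated. A buffer-perfused heart receives no circulating leukocytes during reperfusion, so blood cells measured here are those already in the tissue. Each array was labelled as a biological replicate, and values are log2 expression from RMA. With 2 and 3 hearts, precision is set by how few arrays there are. Fewer cells of a type and less RNA per cell cannot be told apart in such whole-tissue RNA.

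Leukocytes leave the blood in steps. Selectins on the vessel wall catch their sugar-bearing ligands and let cells roll, immunoglobulin-like molecules such as ICAM-1 and VCAM-1 then hold leukocyte integrins, and junction proteins such as PECAM-1, VE-cadherin and the JAM family govern passage between endothelial cells. Tumour necrosis factor and interleukin-1 switch on E-selectin, ICAM-1 and VCAM-1 genes through the transcription factor NF-kB, while the junction genes are transcribed in resting endothelium.

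The stretch upstream of the start site is shown for the 4 members that have an entry in the RefSeq promoter table of build GRCm38.p6, because NF-kB sites lie there in activation-induced genes. Vcam1, Icam2, Pecam1, Cdh5, Jam2 and Esam have no entry. Each is the 250 bases before the start, on the plus strand, at chr1:164047984-164048233 (Sele), chr1:164115014-164115263 (Selp), chr9:21015690-21015939 (Icam1) and chr10:79664309-79664558 (Madcam1). Capitals mark matches on either strand to a loose NF-kB pattern (GGGNNNNNCC), to the AP-1 motif (TGANTCA) and to TATAAA.
Sele: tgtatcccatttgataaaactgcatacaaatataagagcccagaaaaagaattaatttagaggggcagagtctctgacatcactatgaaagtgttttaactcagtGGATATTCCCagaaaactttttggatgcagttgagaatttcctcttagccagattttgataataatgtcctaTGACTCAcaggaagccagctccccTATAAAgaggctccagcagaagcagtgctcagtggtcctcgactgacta
Selp: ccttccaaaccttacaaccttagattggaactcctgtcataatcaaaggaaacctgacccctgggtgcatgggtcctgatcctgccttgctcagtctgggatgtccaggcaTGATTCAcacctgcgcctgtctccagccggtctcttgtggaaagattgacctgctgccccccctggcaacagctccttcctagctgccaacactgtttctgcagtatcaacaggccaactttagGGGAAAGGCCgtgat
Icam1: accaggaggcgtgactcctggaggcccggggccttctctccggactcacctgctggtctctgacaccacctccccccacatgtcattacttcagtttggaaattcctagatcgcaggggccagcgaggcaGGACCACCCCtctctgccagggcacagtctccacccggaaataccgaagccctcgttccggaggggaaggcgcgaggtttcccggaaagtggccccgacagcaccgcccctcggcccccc
Madcam1: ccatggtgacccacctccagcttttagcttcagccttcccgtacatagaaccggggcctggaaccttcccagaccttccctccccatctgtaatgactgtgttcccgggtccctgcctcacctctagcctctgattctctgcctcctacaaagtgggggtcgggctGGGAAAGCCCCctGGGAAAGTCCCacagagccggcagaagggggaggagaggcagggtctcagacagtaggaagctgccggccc

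The loose NF-kB pattern was found in all 4 windows, and it is also present in 45.8% of 32851 RefSeq promoter windows of the same length. In Sele the match GGATATTCCC lay 145 to 136 bases before the start, and the window also held TGACTCA and TATAAA. The AP-1 motif was present in 6.75% of all windows and TATAAA in 12.4%. In Selp the pattern lay 15 to 6 bases before the start and an AP-1 match, TGATTCA, 139 to 133 bases before it. Icam1 had the match GGACCACCCC at 120 to 111 bases. Madcam1 had matches in overlapping registers from 84 to 74 and from 71 to 61 bases before the start. The nuclear receptor core AGGTCA (14% of windows), which REV-ERB binding elements contain, was found in Selp alone of these 4. The ETS motif AGGAAG (29.5% of windows) was found in Sele, Selp and Madcam1, and the E-box CACGTG (6.02%) in none of the 4. These are matches of letters and not measured binding, and sites that depart from the patterns are not marked.

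Antagonist replicate 2 carried by far the largest values of the activation-induced genes, antagonist replicate 1 came next for each of the 4, and antagonist replicate 3 lay close to the sham hearts. The constitutive genes and Madcam1 were nearly level on all 5 arrays. No member passed the test between groups: 0 of the 10 had an adjusted p under 0.05 with limma, as had 0% of all 15294 genes tested (smallest adjusted p 0.60). At an unadjusted limma p under 0.05 there was 1 member, Cdh5, compared with 4.6% of all genes. The antagonist mean was higher for 8 members and lower for 2, where 47.7% of all genes were higher and 46.3% lower.

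**Figure D1:**
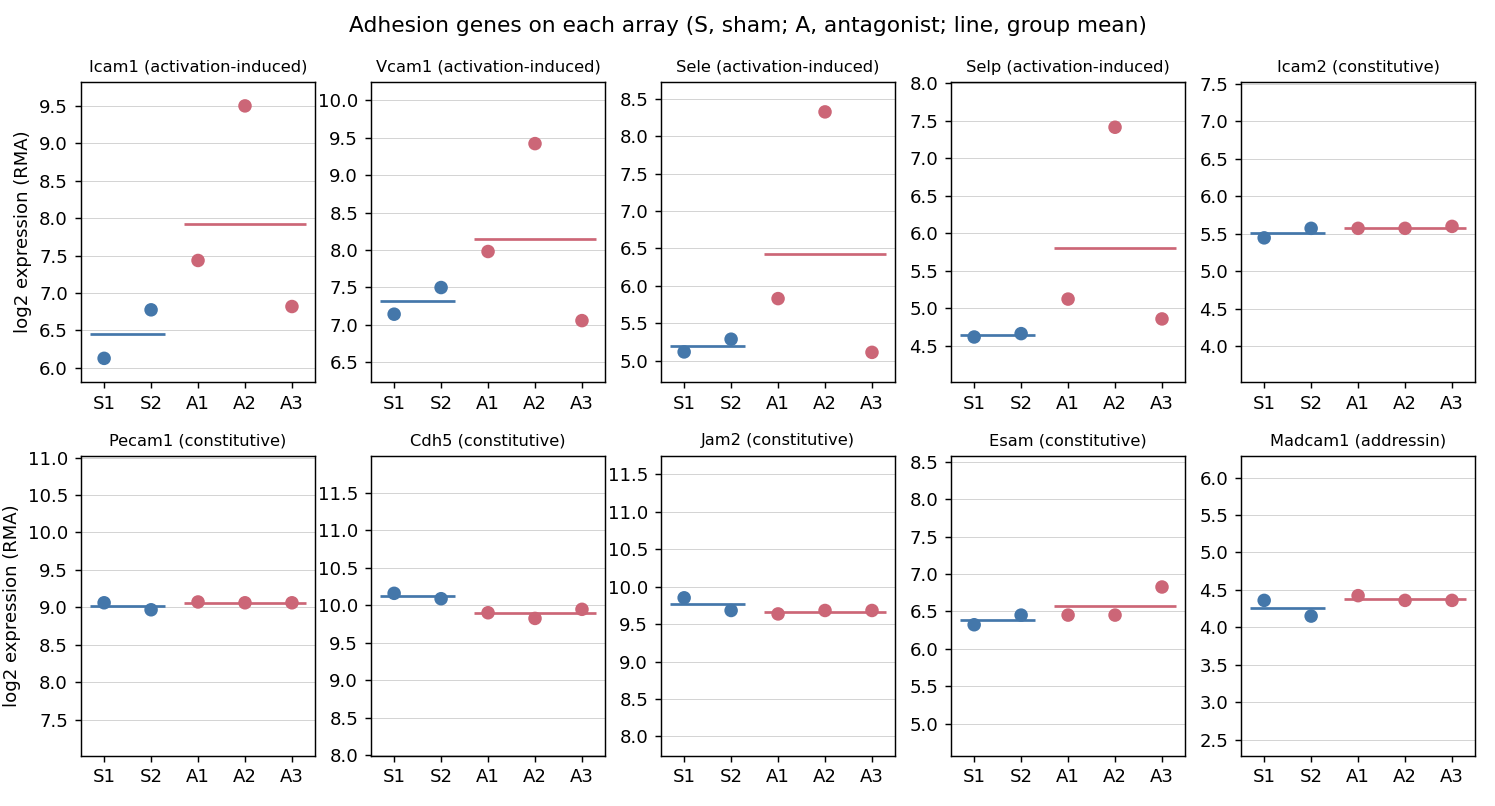
Log2 expression of each of the 10 genes (vertical axis, 4 log2 units in every panel, centred on the gene) on the 2 sham arrays (S1 and S2, blue) and the 3 antagonist arrays (A1 to A3, red), with lines at the group means. In the first 4 panels A2 is the highest point and A1 the second, and the other 6 panels are nearly flat.

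Icam1 (Entrez Gene 15894) encodes the endothelial ligand of the leukocyte integrins LFA-1 and Mac-1. It measured 6.13 and 6.78 in the sham hearts and 7.43, 9.50 and 6.82 in antagonist replicates 1, 2 and 3. The groups did not overlap, but the gap between antagonist replicate 3 and the higher sham heart was only 0.04 on the log2 scale. The means were 6.45 ± 0.46 (SD, n = 2) and 7.92 ± 1.40 (SD, n = 3), a log2 difference of 1.47 ± 0.97 (SE) or 2.76-fold, with a 95% interval of -1.31 to 4.24. The limma adjusted p was 0.64, and an exact permutation test (two-sided, 10 possible divisions) gave 0.2, where 0.1 is the smallest it can give. Without antagonist replicate 2 the difference was 0.68 ± 0.39 (SE).

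Sele (Entrez Gene 20339) encodes E-selectin, the selectin that endothelium makes mainly on activation. Its sham values were 5.12 and 5.29, and its antagonist values 5.83, 8.32 and 5.11. Antagonist replicate 3 lay just under the lower sham heart, so the groups overlapped, while antagonist replicate 2 was 8.69-fold above the sham mean. The log2 difference between the means was 1.22 ± 1.13 (SE; 95% interval -2.04 to 4.47), with a limma adjusted p of 0.69. The SD among the antagonist hearts was 1.69, compared with 0.12 between the sham hearts. Without antagonist replicate 2 the difference was 0.27 ± 0.32 (SE).

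Selp (Entrez Gene 20344) encodes P-selectin, which endothelium and platelets keep in storage granules. It measured 4.61 and 4.66 in sham and 5.12, 7.41 and 4.86 with the antagonist. The groups did not overlap, and antagonist replicate 3 was 0.20 above the higher sham heart. The difference was 1.16 ± 0.95 (SE; 95% interval -1.56 to 3.88), or 2.23-fold, with a limma adjusted p of 0.66. Without antagonist replicate 2 it was 0.35 ± 0.12 (SE), with an unadjusted limma p of 0.070 and an adjusted p of 0.70.

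Vcam1 (Entrez Gene 22329) encodes the ligand of the integrin VLA-4, made by activated endothelium and also by some stromal and mesothelial cells. Its values were 7.14 and 7.50 in sham and 7.98, 9.42 and 7.06 with the antagonist. Antagonist replicate 3 was the lowest of all 5 arrays and the groups overlapped. The difference was 0.83 ± 0.81 (SE; 95% interval -1.49 to 3.16), or 1.78-fold, with a limma adjusted p of 0.71. It was 0.20 ± 0.43 (SE) without antagonist replicate 2 and 1.38 without antagonist replicate 3.

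Group separation was thus seen for 2 of the 4 activation-induced genes, Icam1 and Selp, and in the same direction for 6.19% of all tested genes. Among the 3991 genes with 5 different values, to which all 4 belong, that share was 15.1%. Without antagonist replicate 2 the groups were apart in that direction for 2 of the 4, Icam1 and Selp, and for 8.76% of all genes. Groups that are apart on all arrays stay apart when an array is left out. For Icam1 and Selp this result was therefore fixed beforehand and does not test their dependence on that array. Relative to the sham mean, antagonist replicate 1 was higher by 0.98 for Icam1, 0.66 for Vcam1, 0.63 for Sele and 0.48 for Selp. For antagonist replicate 3 the same quantity was 0.37, -0.26, -0.09 and 0.22, so its sign differed among the 4 genes.

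The constitutive genes moved by small amounts, in both directions. Cdh5 (Entrez Gene 12562) encodes VE-cadherin, the cadherin of endothelial adherens junctions. It measured 10.16 and 10.09 in sham and 9.90, 9.82 and 9.95 with the antagonist, so that all antagonist hearts lay below both sham hearts. The difference was -0.23 ± 0.05 (SE; 95% interval -0.37 to -0.09), or 0.851-fold. Its unadjusted limma p was 0.011, which ranked 209 among 15294 genes, and its adjusted p was 0.64. The exact permutation p (two-sided) was 0.1, the smallest that 2 against 3 hearts allow. Groups separated in this direction for 6.33% of all genes, and for 15.9% of those with 5 different values. Without antagonist replicate 2 the difference was -0.20 ± 0.04 (SE). The groups were then apart in that direction for Cdh5 and for 8.87% of all genes. For Cdh5 this follows from its separation on all arrays and is no further test.

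Pecam1 (Entrez Gene 18613), which encodes the contact protein CD31, measured 9.06 and 8.97 in sham and 9.07, 9.06 and 9.06 with the antagonist, a difference of 0.05 ± 0.03 (SE). Jam2 (Entrez Gene 67374), which encodes a junctional adhesion molecule, measured 9.85 and 9.68 in sham and 9.64, 9.68 and 9.68 with the antagonist, a difference of -0.10 ± 0.06 (SE). Icam2 (Entrez Gene 15896) encodes a ligand of LFA-1 carried by resting endothelium. Its values were 5.44 and 5.57 in sham and 5.57, 5.57 and 5.60 with the antagonist, with a difference of 0.07 ± 0.05 (SE). For these 3 genes the groups overlapped or shared a value.

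Esam (Entrez Gene 69524), which encodes a molecule of endothelial tight junctions and platelets, measured 6.32 and 6.45 in sham and 6.45, 6.45 and 6.83 with the antagonist. Its high array was antagonist replicate 3, not antagonist replicate 2, and the difference was 0.19 ± 0.15 (SE). Madcam1 (Entrez Gene 17123), the ligand of integrin alpha4 beta7 on gut venules, measured 4.36 and 4.15 in sham and 4.42, 4.36 and 4.36 with the antagonist, a difference of 0.13 ± 0.08 (SE). The limma adjusted p of these 5 genes was between 0.64 and 0.65. Icam2, Pecam1, Jam2, Esam and Madcam1 each had only 3 different values over the 5 arrays, exact ties that RMA's median polish can produce and that 73.9% of the tested genes show in some form. Their small SE need not measure the spread between hearts, whereas the activation-induced genes and Cdh5 had no ties.

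**Figure D2:**
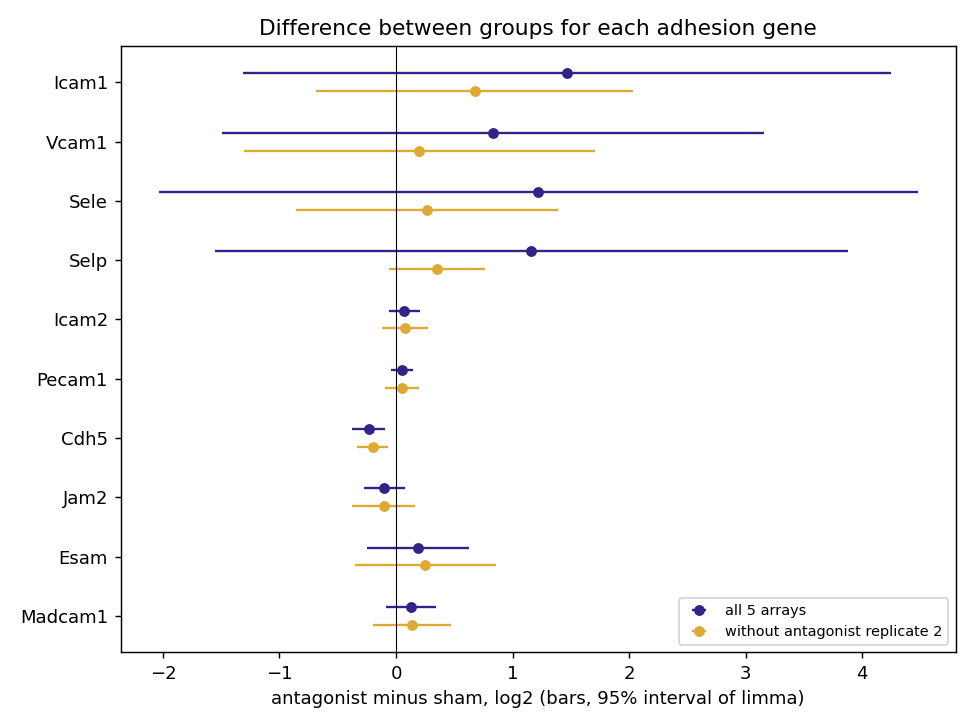
Antagonist minus sham on the log2 scale (horizontal axis) for each gene, with the 95% interval of limma, over all 5 arrays (dark points) and without antagonist replicate 2 (yellow points). The intervals of the activation-induced genes are wide and include 0 in both sets, and those of Cdh5 lie below 0 before adjustment over all genes.

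Set side by side within arrays, the classes parted on antagonist replicate 2. With each gene centred on its own mean over the 5 arrays, the mean of the 4 activation-induced genes was -0.85 and -0.55 in sham and -0.01, 2.06 and -0.64 in antagonist replicates 1, 2 and 3. The mean of the 5 constitutive genes stayed between -0.04 and 0.07 on all arrays. The change of the induced class between the groups was 1.17 and that of the constitutive class -0.0043, so the induced class exceeded the constitutive class by 1.17 on the log2 scale. Without antagonist replicate 2 that excess was 0.36. The difference between the classes had an SD of 0.23 over the sham hearts and of 1.46 over the antagonist hearts, or 0.51 without antagonist replicate 2, and no test was made of a score over chosen genes. The median difference was 1.19 for the activation-induced genes, 0.05 for the constitutive genes and 0 for all tested genes. Without antagonist replicate 2 the medians were 0.31, 0.05 and 0.

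**Figure D3:**
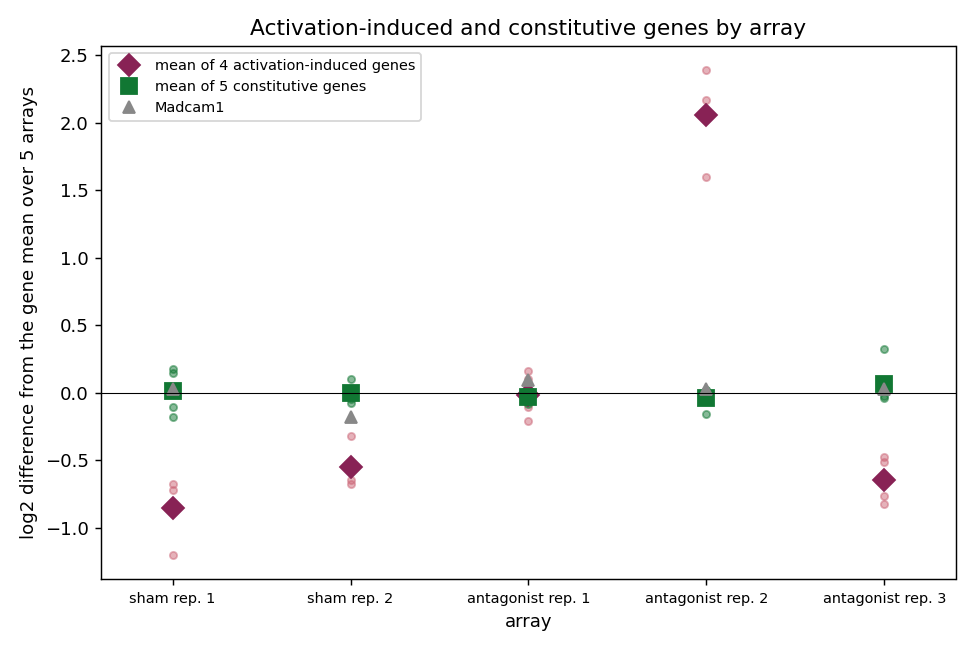
Log2 difference of each gene from its own mean over the 5 arrays (vertical axis) by array. Small points are single genes, red for activation-induced and green for constitutive, and large symbols are the class means and Madcam1. The induced mean stands at 2.06 on antagonist replicate 2, and the constitutive mean is within 0.07 of 0 on every array.

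The 4 activation-induced genes were among the most variable of the table. Their range over the 5 arrays was 3.37 for Icam1, 3.21 for Sele, 2.80 for Selp and 2.36 for Vcam1, ranks 10, 12, 16 and 23 of 15294, where 1.59% of the genes had a range of at least 1. Antagonist replicate 2 exceeded the next highest array by 2.49 for Sele, 2.29 for Selp, 2.06 for Icam1 and 1.44 for Vcam1. An excess of at least 1 there was found for 0.301% of all genes. All 4 had antagonist replicate 2 highest and antagonist replicate 1 second, an order that 2.45% of all genes showed. Ties, present in 73.9% of the tested genes, can keep a gene from this order. The 4 genes have no ties, and the share among genes without ties was not taken. Of the constitutive genes and Madcam1, 0 had their highest value on antagonist replicate 2, compared with 14.8% of all genes, a share that ties lower as well. The high Sele value on that array was known beforehand, so these ranks are a description and were given no test.

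**Figure D4:**
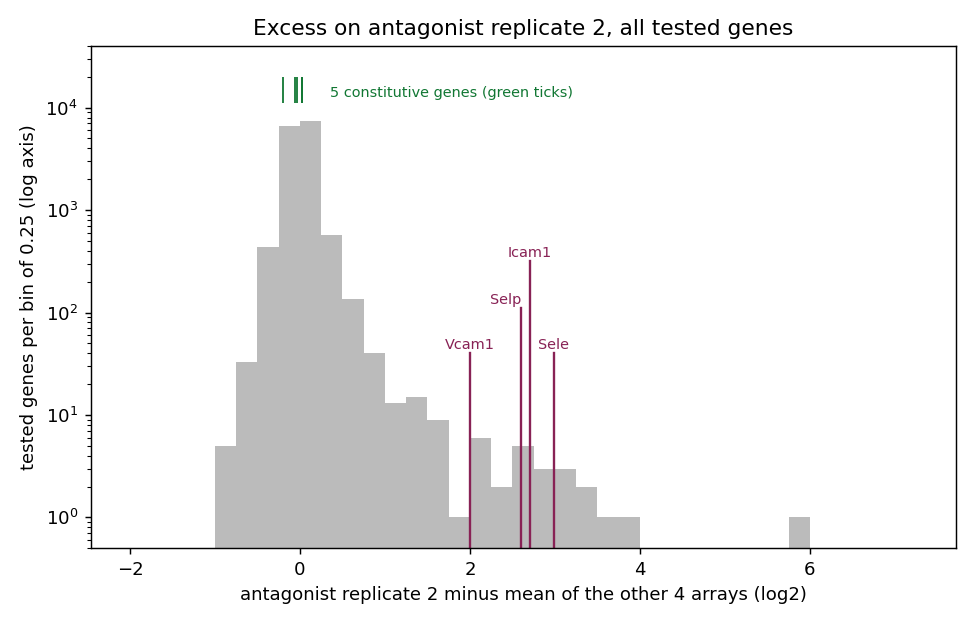
Number of tested genes (log axis) by how far antagonist replicate 2 lies above the average of the 4 remaining arrays in log2 (bins of 0.25). Vcam1 stands at 2.001, Selp at 2.60, Icam1 at 2.71 and Sele at 2.99, in the sparse right tail, and the 5 constitutive genes (ticks) stand between -0.20 and 0.03.

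Markers of other tissue were also highest on antagonist replicate 2. The summed level of 10 atrial muscle genes (log2 of the sum of linear values) was 13.82 there and between 12.30 and 12.52 on the other arrays, with 8 of the 10 highest on that array, among them Sln (10.40, against 6.68 to 7.66). Bmp10, the atrial growth factor gene, differed most between the groups, with 3.42 and 4.81 in sham and 5.88, 10.86 and 5.57 with the antagonist (difference 3.33 ± 2.05, SE, and 1.61 without antagonist replicate 2). Dkk3 stood at 8.01 on antagonist replicate 2 against 5.48 to 6.12 elsewhere. For 8 adipocyte genes the sum was 9.68, against 8.07 to 8.26, with 7 of 8 highest there, among them Cidec (7.03, against 3.70 to 4.75) and Ucp1 (6.49, against 3.29 to 3.47). For 9 mesothelial genes it was 8.81, against 7.81 to 7.89, with 8 of 9 highest there, among them Upk3b (6.61, against 4.80 to 4.90). Adipoq and Cfd of the adipocyte list were not tested, being below the level filter or without a probe of their own. Muc16 of the mesothelial list was below the filter. The part of these tissues in the high adhesion values was not tested. On antagonist replicate 1, where the 4 activation-induced genes were above both sham hearts, the atrial sum was 12.42 (sham 12.52 and 12.30) and the mesothelial sum 7.81 (sham 7.89 and 7.89). The adipocyte sum was 8.16 there (sham 8.10 and 8.07). The atrial sum rests mostly on its brightest gene, Nppa (11.47 to 12.86 over the arrays), and single atrial genes did not all follow it. On antagonist replicate 1 Bmp10, Sln (7.66, sham 7.31 and 7.46) and Myl7 (7.01, sham 6.67 and 6.94) were above both sham hearts. The order of the induced members, with antagonist replicate 2 highest and antagonist replicate 1 second, was shown by 4 of 10 atrial, 0 of 8 adipocyte and 1 of 9 mesothelial genes.

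Genes that mark endothelium in general were nearly level in sum, but not each by itself. The range over the 5 arrays was 0.91 for Vwf and 0.68 for Egfl7, and 0.08 for Tek and for Robo4. The summed level of 20 pan-endothelial genes was 11.96 and 12.09 in sham and 12.02, 12.07 and 12.02 with the antagonist, and antagonist replicate 2 was highest for 3 of the 20. Of these 20 genes, 12 were higher and 8 lower with a median difference of 0.04, and 0 passed with limma (1 at an unadjusted p under 0.05, Clec14a). The angiopoietin receptor gene Tek measured 7.81 and 7.73 in sham and 7.81 on every antagonist array. Clec14a, which encodes an endothelial lectin, was at 6.03 and 6.25 in sham and at 5.75, 5.71 and 5.66 with the antagonist (difference -0.43 ± 0.08, SE; limma adjusted p 0.64). All 20 passed the level filter, so the defining markers of endothelium were present in this tissue.

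Subtypes of endothelium were less even. Among 7 tested venous and endocardial genes antagonist replicate 2 was highest for 5, and their summed level was 9.97 there compared with 9.38 to 9.63 on the other arrays. Plvap, of fenestrated and venous endothelium, measured 5.22 and 5.50 in sham and 5.42, 6.16 and 5.50 with the antagonist, and Npr3, a marker of endocardium, 7.02 and 7.39 against 7.27, 7.94 and 6.95. Ackr1 and Hapln1 of this list were below the filter. Of 10 capillary genes 5 were higher and 5 lower, 0 passed with limma, and 1 higher (Cd36) and 2 lower (Meox2 and Tcf15) had an unadjusted p under 0.05. Such an unadjusted p was found for 4.6% of all genes. Groups of the capillary genes separated upwards for 4 and downwards for 3. Of all genes 6.19% separated upwards and 6.33% downwards, and of those with 5 different values 15.1% and 15.9%. Meox2 and Tcf15, which encode transcription factors of heart capillary endothelium, measured 7.33 and 6.93 in sham against 6.73, 6.46 and 6.59 (difference -0.54 ± 0.16, SE), and 6.99 and 6.85 against 6.54, 6.63 and 6.40 (-0.40 ± 0.09, SE; limma adjusted p 0.64). The capillary sum, which rests on the bright genes Cd36, Lpl and Fabp4, lay between 13.28 and 13.39, and the arterial sum between 9.34 and 9.43 on all arrays. The lymphatic sum was 9.50 in sham replicate 2 and between 9.81 and 9.93 elsewhere. Its gene Lyve1 measured 8.80 and 8.33 in sham and 9.07, 9.14 and 9.01 with the antagonist, whereas Prox1 had 7.87 and 7.63 against 7.38, 7.48 and 7.41. Whole-heart RNA does not show that genes of these lists, such as Cd36, Lpl, Lyve1 and Prox1, came only from the endothelium named. The part of endothelial subtypes in the adhesion values was not tested.

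Platelets also hold P-selectin. The summed level of 8 tested platelet genes was 7.53 and 7.39 in sham and 7.56, 7.57 and 7.47 with the antagonist, and 2 of the 8 were highest on antagonist replicate 2. Gp1ba, Gp1bb, Gp5 and Clec1b were below the filter or without a probe of their own. Of the neutrophil markers S100a8, S100a9, Ly6g, Retnlg, Camp and Ltf were below the filter, and the sum of the remaining 4 lay between 5.93 and 6.02 on all arrays. Among these 4, Ngp stood at 3.42 in both sham hearts, at the cut of the filter. The macrophage and monocyte sum over 13 genes was 10.93 and 10.94 in sham and 11.04, 11.09 and 10.90 with the antagonist. Of these 13 genes 8 were higher and 5 lower, and 0 passed with limma (2 at an unadjusted p under 0.05, Cd14 and Fcgr1). Their groups separated upwards for 4 of the 13 and downwards for 1, compared with 6.19% and 6.33% of all genes. Cd14, the lipopolysaccharide co-receptor gene, was at 6.28 and 6.25 in sham against 6.92, 7.19 and 6.69 with the antagonist. C1qa differed by 0.38 and Ly6c2 and Fcgr1 by 0.34 each, while Cd68 differed by -0.26, Mertk by -0.18 and Csf1r by -0.09. The sum of 4 tested lymphocyte genes lay between 6.78 and 6.998. The pericyte and smooth muscle sum was 12.45 and 12.39 in sham and 12.26, 12.30 and 12.25 with the antagonist. Its groups did not overlap, and 8 of its 10 genes were lower and 2 higher (median -0.09). The sum of the other junction genes, described below, was likewise lower without overlap. The neutrophil, capillary and adipocyte sums, and those of the ligands and activators below, were higher without overlap. No share over all genes was taken for such sums. Kcnj8, a potassium channel gene of pericytes, differed by -0.27 ± 0.08 (SE). Of 10 fibroblast genes 7 were lower and 2 higher (median -0.13, or -0.21 without antagonist replicate 2), and their sum lay between 12.34 and 12.63 with overlapping groups. The heart muscle sum lay between 15.27 and 15.36. Antagonist replicate 2 was highest for 2 of 10 fibroblast, 1 of 10 pericyte and 0 of 10 heart muscle genes. The part of these cells in the adhesion values was not tested.

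On the leukocyte side of the contact, the differences of ligands and counter-receptors were small in the median. Their groups separated upwards for 3 of 13 (Itgam, Itgb1 and St3gal4) and downwards for 0, compared with 6.19% and 6.33% of all genes. The summed level was 10.68 and 10.75 in sham and between 10.76 and 10.81 with the antagonist. Of 13 tested genes 8 were higher and 4 lower, 0 passed with limma (1 at an unadjusted p under 0.05, Itgam), and the median difference was 0.06. Itgam encodes the alpha chain of Mac-1, a receptor for ICAM-1, and measured 5.39 and 5.47 in sham and 5.67, 5.73 and 5.82 with the antagonist (difference 0.31 ± 0.06, SE; limma adjusted p 0.64). Itgb2, which encodes the beta chain shared by LFA-1 and Mac-1, differed by 0.19 ± 0.09 (SE). Itgal, the alpha chain gene of LFA-1, differed by 0.0076, and Selplg, which encodes the P-selectin ligand PSGL-1, by -0.11 ± 0.18 (SE). Itga4, of the VCAM-1 receptor, was tied at 4.57 on all arrays, which need not mean equal levels in the hearts. Cd24a differed by -0.31 ± 0.37 (SE), and the brightest genes of the list, Itgb1, the beta chain gene of the VLA integrins, and Glg1, by 0.06 ± 0.02 and 0.11 ± 0.06 (SE).

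The genes that activate endothelium shared the array order of the induced members in part. Of 16 tested activators and receptors 13 were higher and 2 lower, 0 passed with limma (1 at an unadjusted p under 0.05, Il4ra), and the median difference was 0.12, or 0.08 without antagonist replicate 2. Il1b measured 7.32 and 7.24 in sham and 8.01, 8.52 and 7.53 with the antagonist (difference 0.74 ± 0.33, SE; limma adjusted p 0.64). Tnf measured 7.50 and 7.27 in sham and 7.94, 8.32 and 7.11 with the antagonist, with its lowest value, as for Vcam1 and Sele, on antagonist replicate 3 (difference 0.40 ± 0.43, SE). Il4ra, the receptor chain for interleukins that raise VCAM-1, measured 5.56 and 5.99 in sham and 6.49, 6.32 and 6.41 with the antagonist (difference 0.63 ± 0.16, SE; limma adjusted p 0.64). The receptor genes Ifngr1 and F2r, the brightest of the list, differed by 0.14 ± 0.13 and -0.08 ± 0.13 (SE).

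NF-kB subunit and feedback genes showed a median difference of 0.33 over 15 tested genes, 13 higher and 2 lower, which was 0.08 without antagonist replicate 2. With limma 0 of the 15 passed, also at an unadjusted p under 0.05. Antagonist replicate 2 was highest for 10 of them and was followed by antagonist replicate 1 for 6. These shares over all genes were 14.8% and 2.45%, both lowered by ties. Nfkbia, the gene of the inhibitor IkB alpha, measured 8.03 and 8.18 in sham and 8.59, 9.69 and 8.39 with the antagonist. Separation upwards was found for 3 of the 15, Nfkbia among them, and downwards for 0. Of all genes 6.19% separated upwards and 6.33% downwards, and of those with 5 different values 15.1% and 15.9%. Tnfaip3, which encodes the feedback enzyme A20, measured 6.12 and 6.36 in sham and 6.65, 7.97 and 6.04 with the antagonist. Rela, the gene of the p65 subunit, measured 8.85 and 8.62 in sham and 8.56, 8.84 and 8.45 with the antagonist (difference -0.12 ± 0.16, SE). Bcl3, an atypical IkB gene, measured 5.17 and 5.53 in sham and 5.81, 6.52 and 5.53 with the antagonist.

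The list of chemokines and effectors of endothelial activation, which also holds genes of quiescent endothelium such as Klf2, Klf4, Nos3 and Thbd, had 19 tested genes, of which 14 were higher and 5 lower, with 0 past the limma threshold (1 at an unadjusted p under 0.05, Klf4). Their median difference was 0.12, and -0.03 without antagonist replicate 2, which was highest for 12 of the 19. The neutrophil chemokine gene Cxcl2 measured 5.86 and 6.11 in sham and 6.85, 7.60 and 6.14 with the antagonist (difference 0.87 ± 0.50, SE). The monocyte chemokine gene Ccl7 was at 6.66 and 6.62 in sham and at 7.04, 7.64 and 6.87 with the antagonist, and Ptgs2, of prostaglandin synthesis, differed by 0.12 ± 0.33 (SE). Irf1, which encodes an interferon-regulated transcription factor, was at 6.25 and 6.60 in sham and at 6.81, 8.16 and 6.45 with the antagonist. Klf4, which encodes a factor of quiescent endothelium, was at 8.003 and 7.87 in sham and at 7.54, 7.65 and 7.78 with the antagonist (difference -0.29 ± 0.09, SE; limma adjusted p 0.64).

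Among other junction genes 7 of 19 were higher and 12 lower, with a median difference of -0.05, and 0 passed with limma (3 at an unadjusted p under 0.05, 1 higher and 2 lower). Gja1, which encodes connexin 43 and is most abundant in heart muscle, measured 9.91 and 10.01 in sham and 9.66, 9.56 and 9.40 with the antagonist (difference -0.42 ± 0.09, SE; limma adjusted p 0.64). Pvr, the poliovirus receptor gene, was at 7.35 and 7.53 in sham and at 7.75, 8.01 and 7.70 with the antagonist (0.38 ± 0.13, SE). The tight junction gene Cldn5 differed by 0.16 ± 0.18 (SE), and the bright cadherin and catenin genes Cdh2 and Ctnna1 by -0.15 ± 0.08 and 0.06 ± 0.04 (SE). Among 13 other surface adhesion genes 7 were higher and 6 lower, 0 passed with limma and 1, Cd200, was under 0.05 unadjusted (7.68 and 7.48 in sham against 7.33, 7.33 and 7.25). Vwf, the gene of von Willebrand factor, which shares storage granules with P-selectin in endothelium, measured 6.20 and 6.99 in sham and 6.97, 7.11 and 6.37 with the antagonist. Ninj1, the ninjurin gene, differed by 0.21 ± 0.08, and the sialomucin genes Cd34 and Emcn by -0.02 ± 0.12 and -0.14 ± 0.13 (SE).

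The genes of most similar profile were taken as those with the smallest root mean square difference of centred log2 values over the 5 arrays, among the 3991 genes without ties. For Icam1 the nearest were Sele (0.26), Selp (0.27) and Vcam1 (0.38), so the other 3 induced members led its list, followed by Lgals12 (0.42) and Cdo1 (0.42). For Vcam1 the nearest was Tnfaip3 (0.17), ahead of Irf1 (0.23), Rnd1 (0.28), Cxcl2 (0.30) and Neurl3 (0.31). For Sele the nearest were Selp (0.22), the atrial genes Sln (0.24) and Myl7 (0.24), Icam1 (0.26) and Lgals12 (0.34). For Selp they were Lgals12 (0.17), the adipocyte gene Retn (0.20), Cdo1 (0.21), Sele (0.22) and Icam1 (0.27).

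These profiles are set by antagonist replicate 2 for the most part, so the likeness rests on few arrays. Between pairs of induced members the measure ran from 0.22 to 0.40, and between an induced and a constitutive member from 0.85 to 1.32. The measure is not scaled, so a gene with a large excess lies far from any level gene. The second range follows from this and adds nothing to the values above. Cdh5 had Dhx57 (0.02), Cxxc5 (0.02), Pfdn1 (0.02), Gm20783 (0.03) and Hes1 (0.03) as its nearest genes, all with lower values on each antagonist array than in either sham heart. For members with small ranges many genes lie within such distances. Icam2 was nearest to Polr2d, Cnot8, Ppp1ca, Srpr and Maoa, and Pecam1 to Psmb7, Manf, Fxr1, Entpd1 and Ngly1. Jam2 was nearest to U2af1, Zfr, Zfp84, Txlnb and Scrt2, Esam to Lncpint, Junos, Hdac1, Lrrc52 and Wrap53, and Madcam1 to Tlr4, Prss3, Ssr2, Trappc8 and Mrpl21.

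Genes beside the members on the chromosome were looked up by position in the GRCm38.p6 gene table. Sele and Selp, which share the array order described above, lie near each other there. Mettl18, next to Sele, measured 3.68 and 3.90 in sham and 4.20, 4.18 and 4.20 with the antagonist, without an excess on antagonist replicate 2. Icam4 and Icam5, the neighbours of Icam1 within the same gene family, measured 3.94 and 4.10 in sham against 4.10, 4.23 and 4.10, and 3.39 and 3.61 against 3.61, 3.68 and 3.61. Both had their highest value on antagonist replicate 2, by less than the gap between the sham hearts. Extl2, next to Vcam1, had 1 value on 4 arrays and a lower one on antagonist replicate 3 (5.89 and 5.74). Vsig2, next to Esam, was also highest on antagonist replicate 3, at 6.11, with 5.20 and 5.25 in sham and 5.74 and 5.39 on the other antagonist arrays.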

How the data were processed

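Total RNA (300 ng per array) of 5 hearts was labelled with Affymetrix's WT PLUS kit, per the labels' protocols. The deposited log2 values were made by the authors with RMA, per the submitters' processing notes. RMA's version, the probe library and the build behind it were not given in the sources used here. The table held 41345 probes, of which 23521 had 1 symbol in the platform annotation, 1814 several and 16010 none. Of the single-symbol probes, 23328 matched a RefSeq gene by Entrez identifier and 0 symbols changed. The probe of highest mean was kept for each symbol, and 15294 genes whose mean reached the 40th percentile over probes (3.42) were fitted together without covariates by lmFit and eBayes, from limma 3.58.1 under R 4.3.3. Its two-sided p-values were adjusted by Benjamini-Hochberg over all 15294 genes, and the threshold was 0.05. Array medians lay between 3.92 and 3.95. limma's prior degrees of freedom were 0.69 beside 3 residual ones. The script was tested on simulated data.

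The members, classes and lists were chosen with earlier results of these data known. The text names all 10 members, of each of the 6 pathway lists the 3 tested genes of largest difference and the 2 of highest level, and the 5 nearest profiles of each member. Marker genes, chromosomal neighbours and the other list genes named were chosen after their values were seen. Alternatives covered filters, normalization, probe summary, eBayes options, array weights, the replicate block and leaving out each array. Restriction to untied genes was added after seeing the data.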

Additional observations from a re-analysis of the deposited data

How the results depend on the processing

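All 10 members kept the sign of their difference under every alternative run, and 0 members passed under any of them except Pecam1 without sham replicate 1. There it differed by 0.10 (limma adjusted p 0.032, 1 member past the threshold), with the antagonist values tied on 2 arrays and a single sham heart left. Leaving out arrays moved the number of genes past the threshold from 0 to between 0 and 2058 (1319 without sham replicate 1 and 2058 without sham replicate 2), and the number of members past it to between 0 and 1. A lone sham heart is assumed to vary like the others. Leaving out 1 array at a time gave 0.68 to 2.01 for Icam1, 0.20 to 1.38 for Vcam1, 0.27 to 1.87 for Sele and 0.35 to 1.63 for Selp, the lowest each time without antagonist replicate 2. Cdh5 ran from -0.27 to -0.20. Icam2 (0.0087), Pecam1 (0.0036), Jam2 (-0.02) and Madcam1 (0.02) came near 0 without single arrays. The excess of the induced over the constitutive class ran from 0.36 to 1.76 over all 19 alternatives, and was 0.96 with Madcam1 added to the induced class and 1.28 with class medians. With the replicate number as a block, antagonist replicate 3 is alone in its block and adds nothing to the difference. Icam1 then differed by 2.01, the same as without that array, and 0 genes passed. The 2 shared numbers did not pair the arrays (correlations of deviations -0.11 and 0.03). Other probes could not be tried, since each member has 1. The restriction to genes without ties left 5 members and 0 calls.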
